A study of Mus musculus with 10 samples.

Results

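Levels of 6 genes of fat cells were followed across tissues: Adipoq, Retn and Lep, which encode the hormones adiponectin, resistin and leptin, Adig, which encodes the small membrane protein adipogenin, Cidec, which encodes a coat protein of lipid droplets, and Agt, which encodes angiotensinogen. Members were taken as the probe sets whose single gene symbol was on this list. Of the 6 genes, 5 had a probe set, with 1 probe set each, out of 6137 genes with a single symbol. Adipoq, Retn, Lep and Adig were on chip A and Cidec on chip B. Agt had no probe set under its symbol and is not analysed here. On GRCm38.p6 the protein-coding gene Adipoq spans chr16:23146536-23157968, Retn chr8:3655770-3659818, Lep chr6:29060221-29073876, Adig chr2:158502612-158508198 and Cidec chr6:113424634-113435760. The names of the 5 probe sets end in _s_at, a design that may also match closely similar sequences.

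The samples were white adipose tissue, liver, muscle, pancreas and hypothalamus of adult female C57BL/6 mice, with no treatment named in the labels. RNA of each tissue was hybridised once to each of 2 Affymetrix chips, so a tissue has 1 array on a chip and no replicate. No p-value is given, no error between animals can be had for any difference, and precision is limited by how few arrays there are. The labels do not say how many animals gave each RNA, and the titles of the white adipose arrays name a preconfluent state while their source names the tissue. Deposited medians lay between 143 and 219 on chip A and between 93 and 149 on chip B. These are whole tissues, so fewer cells of a type and less RNA per cell cannot be told apart.

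White fat cells store triglyceride in a large lipid droplet and also act as endocrine cells. Adiponectin and leptin are released into the blood, where leptin reports the size of fat stores to the hypothalamus and adiponectin acts on liver and muscle. In mice resistin is released by fat cells too. Cidec sits on the droplet surface, where it promotes the transfer of lipid from small to larger droplets. Adipogenin rises when preadipocytes become fat cells. The nuclear receptor Pparg and the factor Cebpa drive that change.

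Because these genes were high together in white adipose tissue, the DNA before their transcript starts is shown for 4 of them, taken from RefSeq on the build GRCm38.p6, 250 bases before the start, 5′ to 3′ on the gene's strand. Capitals mark matches to any of 6 motifs searched on both strands, namely TATAA (core of the TATA box), CCAAT, TTNNGCAA (bound by C/EBP factors), GGGCGG (GC box), AGGTCA (core bound by nuclear receptors) and the direct repeat of that core with 1 base between, as PPAR-RXR pairs bind it, which contains the shorter core.
Lep, chr6:29059971-29060220, plus strand: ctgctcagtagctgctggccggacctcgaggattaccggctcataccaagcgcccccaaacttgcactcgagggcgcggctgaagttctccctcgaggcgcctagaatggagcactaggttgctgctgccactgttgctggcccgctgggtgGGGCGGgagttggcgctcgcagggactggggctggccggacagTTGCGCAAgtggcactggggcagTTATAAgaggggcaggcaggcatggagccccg
Adipoq, chr16:23146286-23146535, plus strand: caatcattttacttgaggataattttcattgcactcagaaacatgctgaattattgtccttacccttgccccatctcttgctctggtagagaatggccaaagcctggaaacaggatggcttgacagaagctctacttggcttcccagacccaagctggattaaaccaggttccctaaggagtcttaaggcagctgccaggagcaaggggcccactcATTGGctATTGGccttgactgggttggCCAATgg
Adig, chr2:158502362-158502611, plus strand: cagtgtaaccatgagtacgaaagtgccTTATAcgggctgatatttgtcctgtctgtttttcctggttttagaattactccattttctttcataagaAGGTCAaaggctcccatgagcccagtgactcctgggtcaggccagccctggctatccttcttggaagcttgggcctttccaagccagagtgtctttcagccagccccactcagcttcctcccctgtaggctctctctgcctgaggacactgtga
Cidec, chr6:113434765-113435014, minus strand: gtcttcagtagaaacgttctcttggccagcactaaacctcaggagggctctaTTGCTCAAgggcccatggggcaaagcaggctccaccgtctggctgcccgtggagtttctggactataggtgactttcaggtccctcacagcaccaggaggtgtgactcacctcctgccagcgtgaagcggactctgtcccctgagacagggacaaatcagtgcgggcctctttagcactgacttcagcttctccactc

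The windows before these starts shared few of the searched letters. That of Lep held a TTNNGCAA match beginning 55 bases before the start, overlapping TATAA matches beginning 31 and 32 bases before it, and GGGCGG at 98 bases. The Adipoq window held 3 CCAAT matches, beginning 34, 27 and 7 bases before the start. The Adig window held AGGTCA 154 bases and TATAA 223 bases before the start, and the Cidec window TTNNGCAA at 198 bases. The window of Retn and that before the other RefSeq start of Cidec held none of the 6 motifs and are not shown. That other start is at the outer end of the gene, whereas the Cidec window shown lies inside its span. The windows shown are thus those with a match. Of 32851 windows of the same length before RefSeq starts, TATAA was in 22.8%, CCAAT in 33.8%, TTNNGCAA in 9.56%, GGGCGG in 32.7%, AGGTCA in 14% and its direct repeat in 0.0335%. A match is a run of letters and not a measured site. Lep had the window richest in G and C among the 6 of these genes, at 65.6%, against 48.8% for Adipoq, 50.8% for Adig, 54.8% for Retn and 56.8% and 52.8% for the Cidec windows.

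The 5 genes were each highest in white adipose tissue, and each passed the 4-fold rule used here. By that rule a probe set was called where white adipose tissue exceeded each of the other 4 tissues 4-fold or more. Lower intensities had first been set to 175 (chip A) or 123 (chip B), a floor that keeps noise near 0 from making large ratios. The same rule called 0.904% of probe sets on chip A and 0.918% on chip B. Over the 5 genes the log2 ratio of white adipose tissue to the highest other tissue ran from 3.45 to 4.75, with a median of 4.09, while the median over all 6137 genes was -0.86. The genes were listed for their known place in fat cells and with earlier results of these arrays in view, so their calls are a description.

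**Figure D1:**
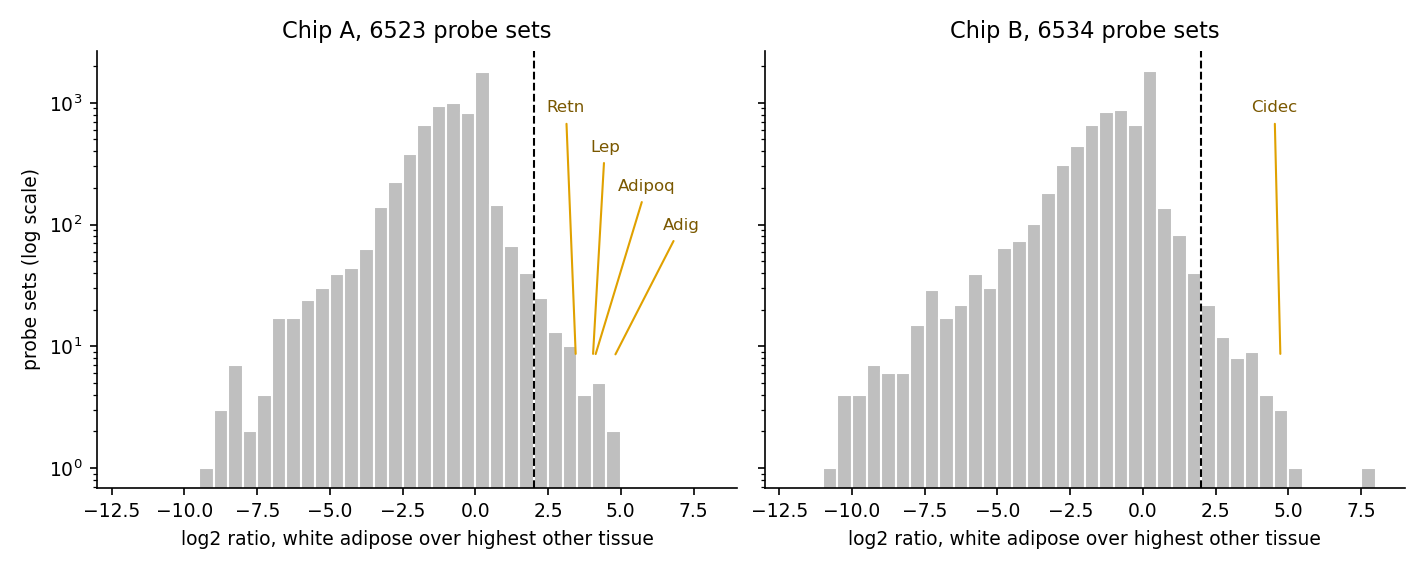
Histograms of the log2 ratio of white adipose tissue to the highest other tissue (x axis) against the number of probe sets (y axis, log scale), for the 6523 probe sets of chip A and the 6534 of chip B; the dashed line at 2 is the 4-fold rule and lines lead to the 5 genes. Adig, Adipoq, Lep and Retn on chip A and Cidec on chip B lie to the right of the dashed line, between 3.45 and 4.75.

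The floor decides part of these ratios. An array's own noise was gauged by the size of its 1st percentile, called the noise bound here. On chip A it was 258 in hypothalamus, 295 in liver, 390.1 in white adipose tissue, 1065 in muscle and 1166 in pancreas, and on chip B it ran from 649.5 in hypothalamus to 2608 in pancreas, with 918 in white adipose tissue. Folds below are the white adipose value over the highest value or bound of the other 4 tissues, with "at least" where a bound sets them. How far a ratio between tissues can move on repeat was read from 15 probe sets present on both chips, other than controls. For the 3 of them above noise, 10 log2 ratios of white adipose tissue to another tissue differed between the chips by 0.14 to 1.13, with a median of 0.43. By their names (MUR_b2_at, MURINE_b1_at and MURINE_B2_at) these 3 are for B1 and B2 repeat elements and not for single genes. Their differences are therefore a rough guide for the genes below. Of the 20 values of the 5 genes outside white adipose tissue, 1 was above its array's bound, that of Retn in pancreas, and 6 were below 0.

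Among the hormones, Adipoq gave an intensity of 16859.6 in white adipose tissue, 988 in muscle, 168 in pancreas, 119.7 in liver and 66.6 in hypothalamus. The white adipose array stood apart from the other 4, and muscle was the next highest, just under its bound of 1065. The fold was at least 14.5, which ranked 3 among the probe sets of chip A by this measure, and the log2 ratio on floored values was 4.09.

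Retn read 15100.2 in white adipose tissue, 1379 in pancreas, 825 in muscle, 213 in hypothalamus and 165 in liver. It was the gene of the 5 with a value above the noise bound outside white adipose tissue, in pancreas, and its floored ratio of white adipose tissue to the next tissue was the lowest of the 5, 11.0-fold or 3.45 on the log2 scale. Its fold ranked 4 on chip A. In pancreas 12.7% of probe sets read at or above the Retn value, and 0.797% read at or below the same size under 0, so the value was near the edge of that array's noise.

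Lep read 2871 in white adipose tissue, 15.0 in liver, 11.9 in hypothalamus, 3.0 in pancreas and -92.2 in muscle. The 4 other tissues lay around 0, and the white adipose value was over the bound of every array of the chip. The floored log2 ratio was 4.04, but the fold against the bounds was at least 2.46, below the 4-fold rule, and ranked 44 on the chip. With the bound of each array as its floor Lep was not called, at a log2 ratio of 1.30.

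Of the genes of fat cell formation and lipid droplets, Adig read 4700.5 in white adipose tissue, -12.9 in hypothalamus, -23.9 in liver, -156 in pancreas and -329.7 in muscle. Every value outside white adipose tissue was below 0. Its log2 ratio of 4.75 ranked 1 on chip A, a rank that rests on the floor, since its fold against the bounds, at least 4.03, ranked 20. With the bounds as floors it passed the 4-fold rule by little, at 2.01 on the log2 scale.

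Cidec read 20109 in white adipose tissue, 759 in pancreas, 166 in liver, 61.5 in hypothalamus and -218 in muscle. Pancreas was the next highest and lay under its bound of 2608. The fold was at least 7.71 and the log2 ratio 4.73, each ranked 4 on chip B. Without the pancreas arrays the ratio was 6.92, while those of Adipoq, Lep, Adig and Retn then lay between 4.09 and 4.82.

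**Figure D2:**
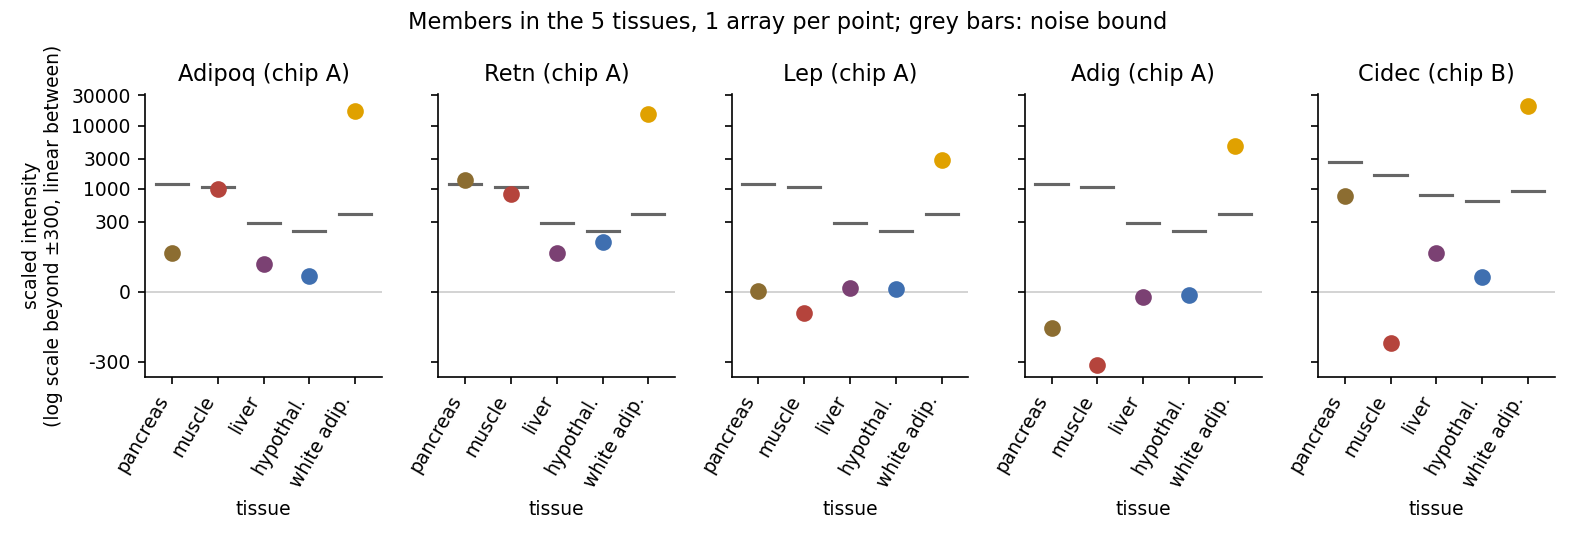
Scaled intensity (y axis, log scale beyond 300 in either direction and linear between) of Adipoq, Retn, Lep, Adig and Cidec in the 5 tissues (x axis), with 1 array per point and a grey bar at each array's noise bound. Each white adipose point lies above the other 4, between 2871 for Lep and 20109 for Cidec, and of the other points that of Retn in pancreas, at 1379, is above its bar.

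Outside white adipose tissue the shares below are from values under the noise bound, except that of Retn in pancreas, so their order between tissues and genes is not read here. As a share of the white adipose value, Retn reached 9.13% in pancreas, 5.46% in muscle, 1.41% in hypothalamus and 1.09% in liver. Adipoq reached 5.86% in muscle, 0.997% in pancreas, 0.71% in liver and 0.395% in hypothalamus. Cidec reached 3.78% in pancreas and 0.823% in liver, and the highest share of Lep was 0.521%, in liver. What the arrays could have shown differed as well. The pancreas bound was 40.6% of the white adipose value for Lep, 24.8% for Adig, 13.0% for Cidec, 7.72% for Retn and 6.92% for Adipoq, whereas the hypothalamus bound was 8.99%, 5.49%, 3.23%, 1.71% and 1.53% in the same order. A Lep signal below 40.6% of the white adipose value in pancreas, or below 37.1% in muscle, was therefore not detectable on these arrays.

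**Figure D3:**
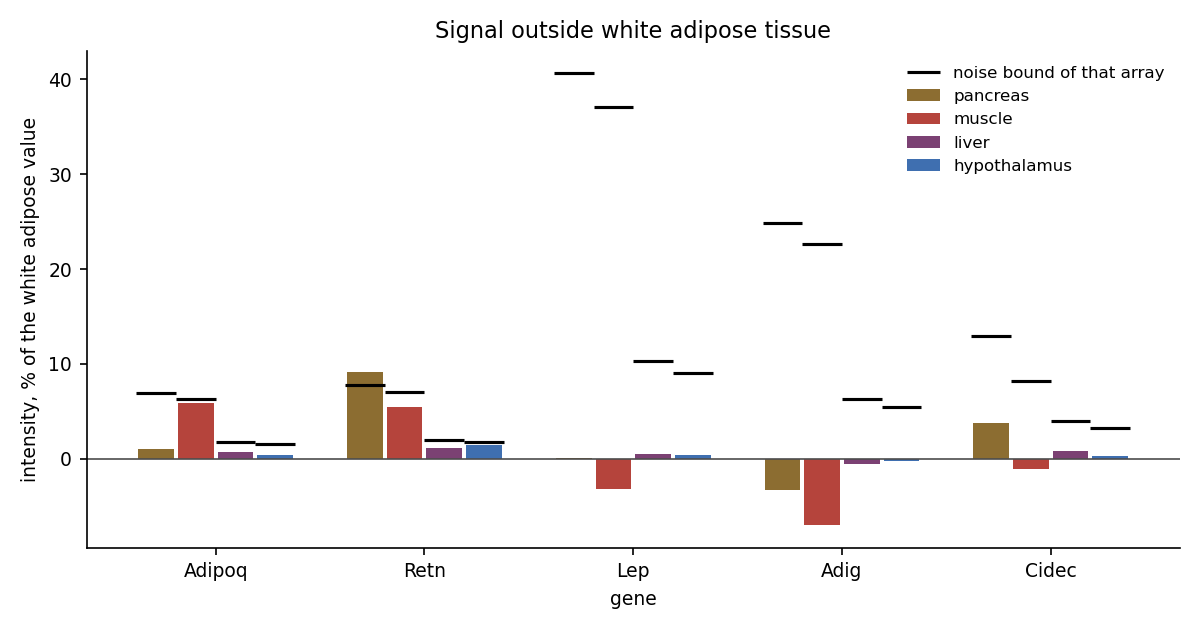
Intensity in pancreas, muscle, liver and hypothalamus as a percentage of the white adipose value (y axis) for each of the 5 genes (x axis), 1 array per bar, with a black line at the noise bound of that array on the same scale. The Retn bar in pancreas, 9.13%, crosses its line at 7.72%, and the other 19 bars stay under theirs.

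Markers of white fat cells were also read outside white adipose tissue. Without the 5 genes, 17 such markers were measured. In white adipose tissue 17 of 17 were above the bound, against 34.3% of all genes, 14 were highest, against 13.8%, and 8 were called, against 1.25%. In pancreas 4 of 17 were above the bound (Acly, Lpl, Mgll and Scd1) and 6 were at or below 0. The summed level of the 10 markers on chip A was 119262 in white adipose tissue, 41583 in muscle, 30718 in liver, 8632 in hypothalamus and 7419 in pancreas. That of the 7 on chip B was 111312 in white adipose tissue, 43751 in liver, 28525 in muscle, 4461 in hypothalamus and 1651 in pancreas. The call itself keeps the shares of called genes low in other tissues, so the shares of the 8 called markers are a description. In pancreas they ran from -9.74% of the white adipose value for Pparg to 10.9% for Acly, with a median of 3.53%. Acly makes acetyl-CoA from citrate. Acly and Mgll, a lipase of monoglycerides, at 10.8%, were above the pancreas bound. The shares of Thrsp (8.07%), Sncg (3.69%), the hormone-sensitive lipase Lipe (3.37%), the fatty acid binding protein Fabp4 (0.955%) and Npr3 (-1.35%) were under it. In muscle the shares of the 8 ran from -5.38% for Pparg to 12.5% for Sncg, with a median of 4.60%. There Sncg, Mgll (10.6%) and Acly (8.46%) were above the bound, and Fabp4 (5.12%), Lipe (4.08%), Thrsp (4.04%) and Npr3 (-2.63%) were under it. Shares of the markers not called ran from -24.7% (Cebpa) to 17.2% (Lpl) in pancreas. In muscle those ran from -16.5% (Cebpa) to 190% (Lpl). The part of fat cells within the pancreas or muscle samples in the Retn and Adipoq values was not tested.

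Genes of stromal cells and macrophages were also present in the white adipose sample. Of all genes, 34.3% were above the white adipose bound, 13.8% were highest there and 1.25% were called. Of 12 markers of preadipocytes and fibroblasts 9 were above the bound, 7 were highest there and Lum, a matrix proteoglycan, was called, and the chip B sum of 9 of them was 87294 against 17841 to 43425 in the other tissues. On chip A the sum of 3 of them was 2009 against at most 822.5. Of 12 macrophage markers 9 were above the bound, 8 were highest there and Csf1r and Mrc1, receptors of macrophages, were called, with chip B sums of 7 of them of 19367 against 3961 to 6949 elsewhere. On chip A the sum of 5 of them was 12404, against 3146 in hypothalamus and 8340.1 in pancreas, the lowest and the highest of the others. The calls of Lum, Csf1r and Mrc1 rest on the floor, with folds against the bounds of at least 1.46, 0.674 and 0.669. The part of stromal cells and macrophages in the values of the 5 genes was not tested. Markers of acinar cells and muscle fibres were far below their levels in pancreas and muscle. Of 10 acinar markers 2, Cel and Cela1, were above the bound there, with a summed level on chip A of 857 against 163933 in pancreas. Of 11 markers of muscle fibres 3 were above it, with a chip A sum of 1837 against 481140 in muscle. Hepatocyte markers gave 1 of 11 above it, Cyp2e1, at 17182 against 16351 in liver. Astrocyte markers gave 1 of 9, Gja1, at 1086 against 1714 in hypothalamus, and no neuron marker of 12 was above it. Of 13 markers of dividing cells 1 was above the bound (Cdk1, at 426 against 1864 in muscle) and none was called. Of 5 measured markers of brown fat cells 1 was above the white adipose bound, Cox8b, at 883 against 14643 in muscle, and none was called. Ucp1, the defining gene of brown fat cells, read 121 in white adipose tissue, under the bound of 390.1.

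Which genes were most like each of the 5 over the tissues was measured as the root mean square difference of floored log2 values over 5 tissues on the same chip, each profile first centred on its mean. Adipoq and Fabp4 were 0.065 log2 units apart: Fabp4 read 17497 in white adipose tissue, 896 in muscle, 167 in pancreas, 67.8 in liver and -17.9 in hypothalamus. The Fabp4 probe set is of a design that may bind related messages. After Fabp4 the nearest to Adipoq were the collagen chaperone Serpinh1, at 0.83, and Lipe, at 0.84. For Lep the nearest were Npr3, a receptor that clears natriuretic peptides (0.11), Col15a1, a basement membrane collagen (0.19), and Tmem250-ps (0.20). Of 4 Npr3 probe sets 2 were called for white adipose tissue. Col15a1, Npr3 and Lipe were the nearest to Adig, at 0.28, 0.40 and 0.47, and Lep itself was 0.28 from Adig. For Lep, Adig and Npr3 the other 4 tissues were at the floor, so the white adipose value alone sets how alike they are. For Adipoq and Fabp4 pancreas, liver and hypothalamus were at the floor and muscle was under its noise bound, so their distance rests on the white adipose value and 1 value that is not above noise.

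Nearest to Retn were Notch2, a cell surface receptor, at 0.32, Anxa2, an annexin, at 0.60, and Mgll at 0.63. Of 4 Notch2 probe sets 1 was called for white adipose tissue, so that match holds for that probe set. Retn lay 1.14 from Adig, 1.20 from Lep and 1.22 from Adipoq, farther than from these 3 genes. Nearest to Cidec on chip B were Serpinh1 at 1.09, Myb at 1.21 and Cd151 at 1.23. Of 2 Myb probe sets 1 was called, and of 2 Cd151 probe sets none was. A profile over 5 tissues is short, and these distances describe single arrays.

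Genes for proteins of lipid droplets and triglyceride storage were often highest in white adipose tissue, and a smaller part of them passed the 4-fold rule. Of 14 measured genes of this list other than Cidec, 11 were highest there, 78.6% against 13.8% of all genes. By their representing probe sets 3 were called, Lipe, Fabp4 and Mgll, 21.4% against 1.25% of all genes. Dgat1 had 2 probe sets, of which 1 was called. The one that represents it was not, at 3316 in white adipose tissue and at most 968 elsewhere. The list's median log2 ratio was 1.03. Lipe read 17410.2 in white adipose tissue and at most 709.5 elsewhere, a fold of at least 14.9, and Mgll 11343 against 1228 in pancreas, a 9.24-fold difference. Lipe, Fabp4 and Mgll are also among the white fat cell markers above. Plin2, a coat protein of droplets in many cell types, read 8629 in liver against 4974 in white adipose tissue, a log2 ratio of -0.79 that lies within the differences seen between the chips. Cidea, a relative of Cidec found in brown fat, read 185 in white adipose tissue, under the bound.

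Of 17 other adipokines measured none was called for white adipose tissue, where 1.25% of all genes were, so this count is near the background. Of the 17, 9 were above the white adipose noise bound and 4 were highest there, 23.5% against 13.8% of all genes (Angptl4, Vegfa, Grn and Apoe, named after their values were seen), by log2 ratios of at most 0.95, and the median log2 ratio was -0.30. For Grn this depends on the probe set, since another of its 3, on chip A, read 2354 in pancreas against 1305 in white adipose tissue. Hp, Rbp4 and Rarres2, chosen after their values were seen, were above the noise bound in both white adipose tissue and liver. Hp, which encodes the hemoglobin carrier haptoglobin, read 22593 in white adipose tissue and 27853 in liver, a log2 ratio of -0.30, smaller than the median difference between the chips. Rbp4, the retinol carrier, read 7461 and 18567 in the same order, and Rarres2, which encodes chemerin, 3689.6 and 12998, log2 ratios of -1.32 and -1.82 that exceed the differences between the chips.

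**Figure D4:**
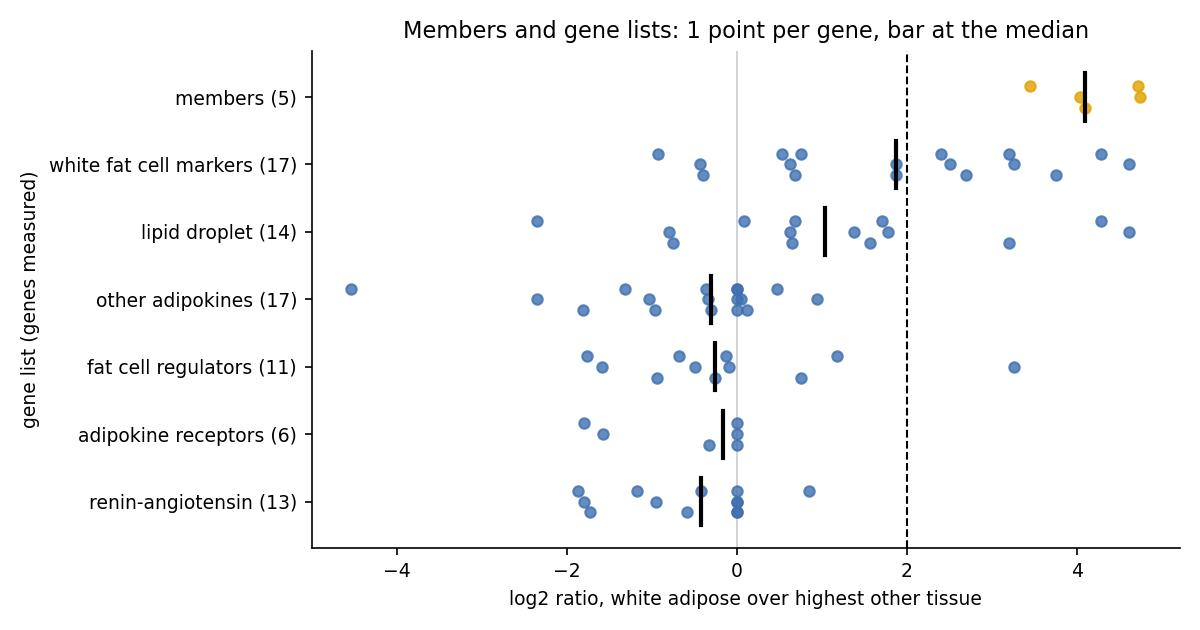
Log2 ratio of white adipose tissue to the highest other tissue (x axis) for each measured gene of 7 groups (y axis, with the number of genes), 1 point per gene, a bar at each median and a dashed line at the 4-fold rule. The 5 members lie beyond the line, with a median of 4.09, whereas the medians are 1.87 for white fat cell markers, 1.03 for lipid droplet genes and -0.30 for other adipokines.

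Among 11 transcription regulators of fat cells 1 was called, Pparg, 9.09% against 1.25% of all genes, and the median log2 ratio was -0.25. Of the 11, 5 were above the white adipose noise bound, 45.5% against 34.3% of all genes, and 3 were highest there, 27.3% against 13.8%. Pparg read 1675 in white adipose tissue and below 0 in the other 4, a fold of at least 1.44, and it was not called with the bounds or the 75th percentile as the floor. Cebpa read 2224 in white adipose tissue and 1321 in liver, a log2 ratio of 0.75, within the differences between the chips.

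Of 6 measured receptors of these hormones, of insulin and of angiotensin peptides, 1 was above the noise bound in any tissue, Adipor2. None was called for white adipose tissue, against 1.25% of all genes, and for the other 5 this rests on values that are not above noise. Adipor2, a receptor of adiponectin, read 4346 in liver, 3455 in white adipose tissue, 849.8 in muscle, 579 in hypothalamus and 286 in pancreas, and its log2 ratio of -0.33 between white adipose tissue and liver was smaller than the median difference of 0.43 between the chips. Lepr, the leptin receptor, read below 0 in every tissue, hypothalamus included, at -33.8. It was not detectable on these arrays, and neither were Agtr2, Mas1, Insr and Cap1.

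The renin-angiotensin list stands here for the pathway of Agt. Of 13 measured genes 3 were above the noise bound in any tissue and 2 in white adipose tissue, Ctsd and Enpep, so the values of most were not above noise. None was called, against 1.25% of all genes, and 1 was highest there, 7.69% against 13.8% of all genes. It was Enpep, an aminopeptidase that cleaves angiotensin peptides, at 2761 against 1531 in liver. Ace, which makes angiotensin II, has 2 probe sets, and the one that represents it read 277 in pancreas. That was the highest of this probe set's 5 values and under the bound. Agtr2, a receptor of angiotensin II, read 41.0 in pancreas and below 0 elsewhere.

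All 3 alternative scalings left the 5 genes called for white adipose tissue, though the values as deposited are very close to the scaled ones. With the values as deposited, scaled at the 75th percentile or quantile normalized, the log2 ratios of the 5 genes ran between 3.45 and 5.68. Floors moved Lep and Adig most, to 7.58 and 12.20 with no floor other than 1, since their values elsewhere were near or below 0.

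**Figure D5:**
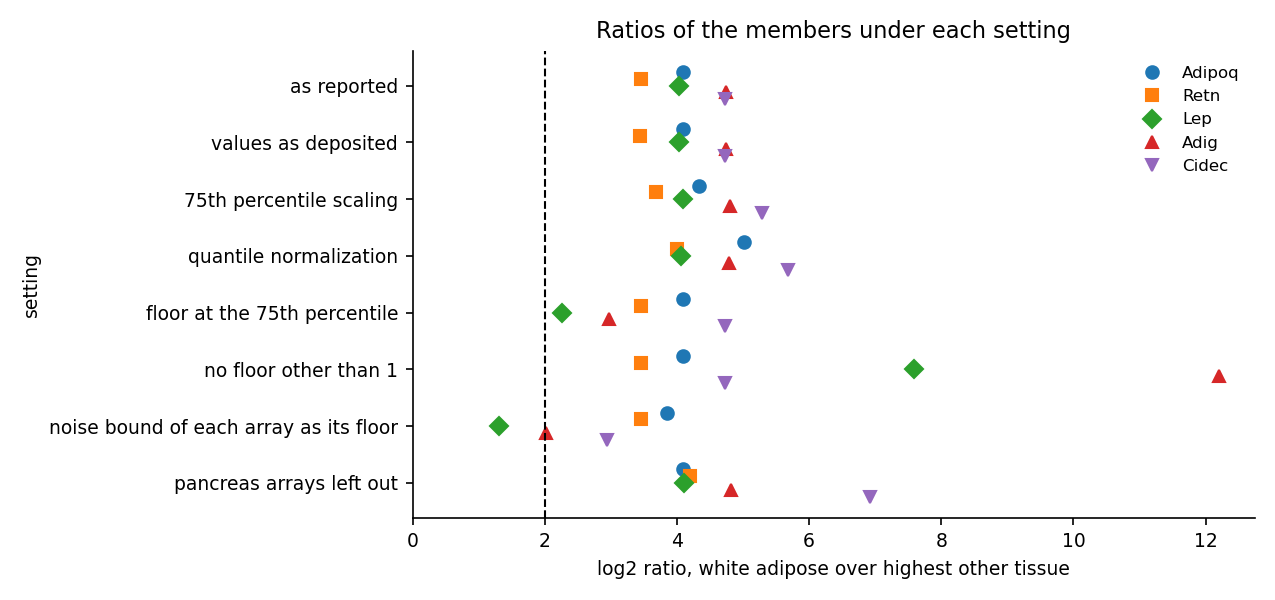
Log2 ratio of white adipose tissue to the highest other tissue (x axis) of the 5 genes under the reported setting and 7 alternatives (y axis); the dashed line is the 4-fold rule. Lep falls left of the line, at 1.30, with each array's noise bound as its floor, and the other points lie right of it, Adig at 2.01 in that setting.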

How the data were processed

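The authors deposited intensities on a linear scale, in whole numbers, 1 column per array, and between 17.1% and 38.8% of an array's values are below 0. The 2% trimmed mean of each deposited array lies between 500.8 and 501.5. Which software made them is not given in the sources used here. Biotin-labelled cRNA was hybridised to Affymetrix chips, per the labels' protocols. Gene names came from platform annotation, with symbols updated through a table of GRCm38.p6, and 13057 probe sets remained after 61 controls per chip were left out. Each array was scaled by its 2% trimmed mean and floored at the median of the 5 array medians of its chip. Calls were made by the 4-fold rule on log2 ratios (Python 3.11.15, pandas 2.3.3). These steps were run on simulated data with changes placed in brighter probe sets only. That run does not cover genes as dim on average as Lep or Adig. With several probe sets, a gene was represented by that of the highest mean rank in its chip. Groups were taken from the source label. The members and lists were chosen with earlier results of these data known. Named were the members, called genes of each list (at most 6), their direct partners and the 3 most alike genes. Values of different chips were not compared. Alternatives were other scalings, floors, folds and probe set rules, and leaving out pancreas.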

Additional observations from a re-analysis of the deposited data

How the results depend on the processing

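Of 80 alternative values over the counts of called genes and the 5 ratios, 76 kept their side of the 4-fold rule or stayed within 1.5 times the reported count. Several of the 80 could hardly move, so this count does not measure how robust the results are. Values as deposited differed from the scaled ones only by factors of 0.993 to 1.005. Each member has 1 probe set, so taking any probe set changes nothing, and a 2-fold rule keeps every 4-fold call. The count of called members was 4 to 5 over its alternatives, lowest with each array's noise bound as its floor, where Lep had a log2 ratio of 1.30. The count of fat cell regulators, 1 as reported, was 0 with the floor at the 75th percentile, 0 with the noise bounds as floors and 2 with no floor other than 1, as floors set the ratios of dim genes. Leaving out probe sets of relaxed design gave no value for the members, since all 5 are of such design. Signal under the wide noise bounds of the pancreas and muscle arrays limits what can be said of low levels there. No paired analysis was possible because each tissue has 1 array per chip and no test was made.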
